A study of Mus musculus with 12 samples.

Results

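The genes described here are 10 members of the hypoxia-inducible factor (HIF) pathway, namely the factor's subunits Hif1a, Epas1, Hif3a and Arnt, the regulators Vhl, Egln1, Egln2 and Egln3, and the targets Vegfa and Car9. Their probe sets were taken by gene symbol, 1 single-symbol probe set for each gene, and all 10 were found among the 19938 genes measured in whole mouse kidney. PpargΔ/Δ mice, which are null for Pparg by the study's title, and their controls were on a mixed C57BL6/SV129 background. AZIP mice, which carry a transgene known for blocking the formation of fat tissue, and their FVB controls were on the FVB background. All mice were 3 weeks old, were kept under a standard light and dark cycle and were killed with CO2, and the hour of collection is not stated in the labels. Each of the 4 groups had 3 arrays and each array held the pooled RNA of 3 mice, so that n is 3 pools in a group and 36 mice entered in all. How the Pparg allele was made, which part of the gene is missing and which promoter drives the AZIP transgene are also missing from the sources used here. Each mutant line has its own background, so line and background cannot be told apart.

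HIF is a transcription factor made of an oxygen-regulated alpha subunit (encoded by Hif1a, Epas1 or Hif3a) and the constant partner Arnt. In the presence of oxygen the prolyl hydroxylases Egln1, Egln2 and Egln3 mark the alpha subunit, and Vhl, the recognition part of a ubiquitin ligase, then sends it for destruction. When oxygen is low the alpha subunit persists and switches on genes for glycolysis, vessel growth, red cell formation and pH control. Because the alpha subunits are governed mainly as proteins, an array of RNA shows the pathway's transcripts and not its activity. In the kidney the pathway is best known for erythropoietin, which interstitial cells make when oxygen falls.

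The arrays were alike in scale, with medians between 7.17 and 7.21 in log2 and a mean correlation between arrays of a group of 0.997 to 0.998 across genes. Whole kidney was what the arrays read: Slc34a1 of the proximal tubule and Umod of the thick limb lay at percentile 99.9 of brightness. The targeted gene, Pparg, read 8.0, 8.19 and 8.01 in PpargΔ/Δ kidneys, against 7.90, 7.97 and 8.02 in controls (0.11 ± 0.06 in log2, limma adjusted p = 0.339). Its probe set summarises probes whose place relative to the deletion is unknown, so it does not check the genotype. Values below are log2 array values. Differences are mutant minus control with the SE of limma, and the threshold is an adjusted p of 0.05 over all 19938 genes. The p-values measure the spread between these pools, which is smaller than that between single mice. In whole-kidney RNA, fewer cells of a type and less RNA per cell cannot be told apart. Brightness depends on the probes, so levels are compared between groups and not between genes.

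Hif3a, the third alpha subunit, whose splice forms include inhibitors of the other alpha subunits, rose in both mutant lines. In PpargΔ/Δ kidneys it read 8.51, 8.36 and 8.58, against 7.19, 7.29 and 7.43 in controls. The groups did not overlap and lay nearly 1 log2 unit apart at their nearest arrays. The rise was 1.18 ± 0.08 (95% interval 1.0 to 1.36), which is 2.27-fold (2.0 to 2.57), with a limma adjusted p of 8.33e-05. By p-value Hif3a ranked 2 of 19938 genes in this comparison, and by size of rise it ranked 13. In AZIP kidneys it read 7.75, 7.66 and 7.92, against 6.77, 6.78 and 6.85 in FVB controls. Again every mutant pool lay above every control pool. The rise was 0.98 ± 0.08 (95% interval 0.80 to 1.16), or 1.97-fold (1.74 to 2.23), with a limma adjusted p of 0.00129. It ranked 1 by p-value and 12 by size of rise. Both calls were kept under all 17 alternatives tried in each comparison, with limma adjusted p up to 0.00275 in PpargΔ/Δ and up to 0.0161 in AZIP kidneys.

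Across the 4 groups the levels of Hif3a ran from PpargΔ/Δ (8.48 ± 0.11, SD, n = 3) through AZIP (7.78 ± 0.13) and controls (7.30 ± 0.12) to FVB controls (6.80 ± 0.04). No neighbours in that order overlapped. The FVB arrays lay below the mixed-background arrays in controls as well as in mutants, a step that was not tested because strain differs with it. The rise was 0.20 larger in PpargΔ/Δ than in AZIP kidneys, but the 95% interval of that difference ran from -0.05 to 0.45 and its limma adjusted p was 0.877. A difference between the lines in the size of the rise was therefore not shown.

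**Figure D1:**
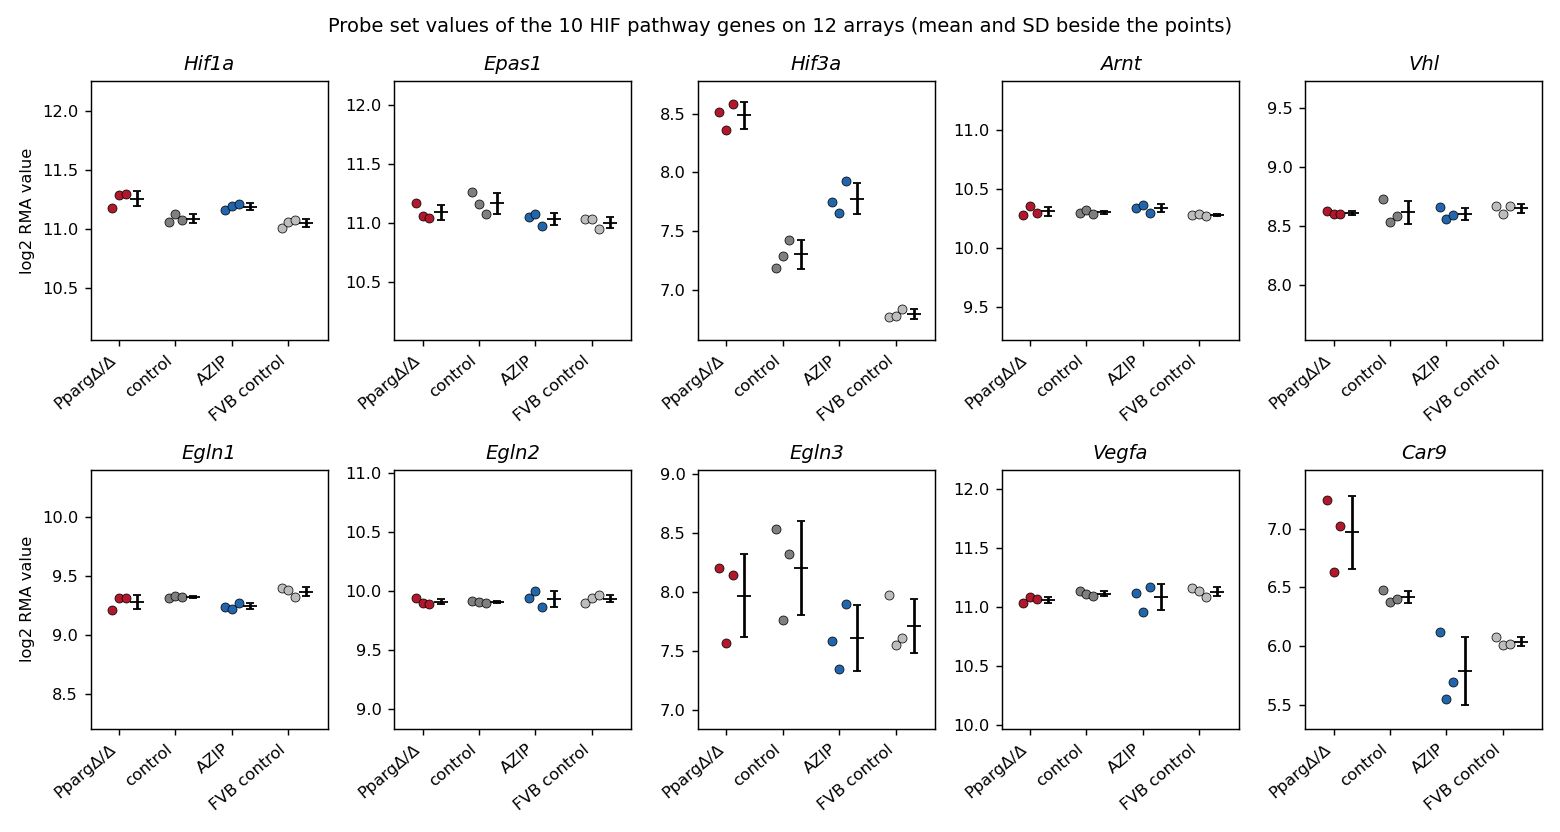
Log2 array values (vertical axis, each panel with its own range) of the 10 genes in PpargΔ/Δ, control, AZIP and FVB control kidneys; points are the 3 pools of a group, and the bar beside them is the mean and SD. Hif3a is higher in both mutants with no overlap, Hif1a shows a small step of the same sign, and Egln3 and Car9 spread widely between pools.

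The start of Hif3a is shown because it carries letters of the hypoxia response element, the short DNA word read by the HIF dimer. It is set beside the starts of Car9, a classical target, and Ddit4, the target with the largest rise in both comparisons. Each window runs from 250 bases before to 50 bases after the start site in RefSeq's GRCm38.p6 table. Both ACGTG and GCGTG were searched on both strands, and matches are in capitals (CACGT and CACGC are the same words on the other strand). The Hif3a window is chr7:17062378-17062677 on the minus strand, the Car9 window chr4:43506776-43507075 on the plus strand and the Ddit4 window chr10:59951721-59952020 on the minus strand.
Hif3a: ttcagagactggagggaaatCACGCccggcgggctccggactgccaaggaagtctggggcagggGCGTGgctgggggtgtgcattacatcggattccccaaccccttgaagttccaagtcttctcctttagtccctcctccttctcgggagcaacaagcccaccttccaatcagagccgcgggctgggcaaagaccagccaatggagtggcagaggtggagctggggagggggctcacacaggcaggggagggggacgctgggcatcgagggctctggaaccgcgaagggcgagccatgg
Car9: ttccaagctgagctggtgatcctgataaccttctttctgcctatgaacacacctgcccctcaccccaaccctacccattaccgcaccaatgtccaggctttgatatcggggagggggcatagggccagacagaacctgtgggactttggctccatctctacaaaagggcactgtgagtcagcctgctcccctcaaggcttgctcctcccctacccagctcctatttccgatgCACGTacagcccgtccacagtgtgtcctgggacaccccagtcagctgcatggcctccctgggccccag
Ddit4: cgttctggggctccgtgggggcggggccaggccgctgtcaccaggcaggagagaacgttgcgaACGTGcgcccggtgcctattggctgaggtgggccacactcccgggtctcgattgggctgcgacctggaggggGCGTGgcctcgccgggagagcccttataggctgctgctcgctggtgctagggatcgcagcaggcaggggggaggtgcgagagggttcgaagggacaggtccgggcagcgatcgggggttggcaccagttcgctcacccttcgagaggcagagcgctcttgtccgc
Hif3a held 2 matches, whose first bases lie at positions -230 and -186, counted from the start site. Car9 held 1 match at -18 on the other strand, and Ddit4 held 2, at -187 and -115. Such a word is common: 43.8% of 32851 RefSeq mouse promoter windows of the same length hold at least 1. RefSeq windows, 11 in all, were matched for 9 of the 10 genes, and 8 of those 9 genes had a match in at least 1 window. That count is of genes and the 43.8% is of windows, so the 2 are unlike. Vegfa had 0 matches in 1 of its windows and 2 in the other. Vhl had 0 matches and Egln2 had 6 in 1 of its windows, and neither gene passed the threshold below. The letters are a description of these windows and show no binding.

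Hif1a, the broadly expressed alpha subunit, was a little higher in both mutants without passing the threshold in either. It read 11.18, 11.29 and 11.30 in PpargΔ/Δ kidneys, against 11.06, 11.13 and 11.08 in controls, and the groups did not overlap. The difference was 0.17 ± 0.05 (95% interval 0.07 to 0.27, limma adjusted p = 0.0604). Without the first PpargΔ/Δ pool it was 0.21 and past the threshold (limma adjusted p = 0.0316). In AZIP kidneys it read 11.16, 11.20 and 11.22, against 11.01, 11.06 and 11.08 in FVB controls, again with no overlap (0.14 ± 0.05, limma adjusted p = 0.146). Mutant means of Hif1a lay above both control means, while PpargΔ/Δ overlapped AZIP and controls overlapped FVB controls.

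Epas1, the alpha subunit that drives erythropoietin in the kidney, showed no such step. It read 11.17, 11.07 and 11.05 in PpargΔ/Δ kidneys, against 11.26, 11.16 and 11.08 in controls (-0.08 ± 0.06, limma adjusted p = 0.516). AZIP kidneys read 11.05, 11.08 and 10.98, against 11.03, 11.03 and 10.95 in FVB controls (0.03 ± 0.06, limma adjusted p = 0.861). The groups overlapped in both backgrounds. Arnt, the shared partner of all alpha subunits, differed by 0.01 ± 0.04 in PpargΔ/Δ and by 0.06 ± 0.04 in AZIP kidneys (limma adjusted p = 0.921 and 0.534). Its AZIP pools (10.34, 10.36 and 10.30) all lay just above the FVB control pools (10.28, 10.29 and 10.27), by a small margin.

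Vhl and the 3 prolyl hydroxylases did not pass the threshold in either line. Vhl differed by -0.01 ± 0.05 in PpargΔ/Δ kidneys (limma adjusted p = 0.964) and by -0.05 ± 0.05 in AZIP kidneys (limma adjusted p = 0.748). Egln1, the main oxygen sensor of most cells, read 9.24, 9.22 and 9.27 in AZIP kidneys, against 9.39, 9.38 and 9.33 in FVB controls. These groups did not overlap, and the difference of -0.12 ± 0.04 had a limma adjusted p of 0.183. In PpargΔ/Δ kidneys Egln1 read 9.21, 9.31 and 9.32, against 9.32, 9.33 and 9.32 in controls (-0.04 ± 0.04, limma adjusted p = 0.646). Egln2 was nearly level, with differences of 0.00 ± 0.05 in PpargΔ/Δ kidneys and -0.00 ± 0.05 in AZIP kidneys, and intervals between -0.10 and 0.10.

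Egln3, a hydroxylase that is itself induced by HIF, was the least certain of the 10. It read 8.20, 7.56 and 8.14 in PpargΔ/Δ kidneys, against 8.53, 7.76 and 8.33 in controls (-0.24 ± 0.22, 95% interval -0.72 to 0.25, limma adjusted p = 0.607). In AZIP kidneys it read 7.58, 7.34 and 7.90, against 7.97, 7.55 and 7.61 in FVB controls (-0.10 ± 0.22, 95% interval -0.59 to 0.38, limma adjusted p = 0.879). The groups overlapped in both backgrounds, and neighbours in the order of levels (controls, PpargΔ/Δ, FVB controls, AZIP) overlapped throughout.

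The 2 target genes behaved differently from each other. Vegfa, the main growth factor of blood vessels, read 11.04, 11.09 and 11.07 in PpargΔ/Δ kidneys, against 11.14, 11.11 and 11.10 in controls, a difference of -0.05 ± 0.05 (limma adjusted p = 0.662). AZIP kidneys read 11.12, 10.96 and 11.17, against 11.17, 11.14 and 11.09 in FVB controls (-0.05 ± 0.05, limma adjusted p = 0.751). Vegfa pools were thus marginally lower without overlap in PpargΔ/Δ kidneys and mixed with their controls in AZIP kidneys. Car9 encodes a membrane carbonic anhydrase that acts in pH control and is a sensitive HIF target. It read 7.24, 6.64 and 7.02 in PpargΔ/Δ kidneys, against 6.48, 6.38 and 6.4 in controls. Every PpargΔ/Δ pool was higher, but with a wide spread, and the difference of 0.55 ± 0.15 (1.46-fold) had a limma adjusted p of 0.0560. It was 0.71 with a limma adjusted p of 0.0246 without the second PpargΔ/Δ pool. In AZIP kidneys Car9 read 6.12, 5.56 and 5.70, against 6.08, 6.01 and 6.02 in FVB controls (-0.25 ± 0.15, limma adjusted p = 0.464). The first AZIP pool was above its controls and the other pools below them. The difference between the lines for Car9 was 0.80 ± 0.21 with an unadjusted p of 0.00281 and a limma adjusted p of 0.606, so it was not shown either. Its probe set was dim, at percentile 30.06 of gene brightness.

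Hif3a stood apart from the other 9 genes in size. It was the only one of the 10 past the threshold in PpargΔ/Δ kidneys, where 5.29% of all genes passed, and the only one in AZIP kidneys, where 2.43% passed. The PpargΔ/Δ count depended on the settings: it was 3 (Hif1a and Car9 beside Hif3a) with a filter on dim genes, a variance trend or an adjusted p under 0.10, and 2 with array weights or without PpargΔ/Δ pool 1 or 2. The AZIP count was 1 with any single pool left out. A count of 1 in 10 is not set apart from these percentages by any test, and the result concerns Hif3a, not the list. Groups did not overlap for 4 of the 10 genes in PpargΔ/Δ kidneys (Hif3a, Hif1a and Car9 higher, Vegfa lower), against 26.1% of all genes. They did not overlap for 4 of 10 in AZIP kidneys (Hif3a, Hif1a and Arnt higher, Egln1 lower), against 22.5% of all genes. No member passed in the difference of the 2 effects, where 0.0201% of all genes did.

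The other 9 genes had differences from -0.24 to 0.55 in PpargΔ/Δ kidneys with a median of -0.01, and from -0.25 to 0.14 in AZIP kidneys with a median of -0.05. The medians over all genes were -0.01 and 0.00. For the 6 genes Epas1, Arnt, Vhl, Egln1, Egln2 and Vegfa the 95% intervals lay between -0.20 and 0.11 in PpargΔ/Δ and between -0.22 and 0.16 in AZIP kidneys. The highest upper bound among the 9 was 0.88 in PpargΔ/Δ kidneys (Car9) and 0.38 in AZIP kidneys (Egln3), below the lower bounds for Hif3a of 1.0 and 0.80. Subtracting the mean of the other 9 from Hif3a on each array gave -1.14, -1.18 and -1.05 in PpargΔ/Δ kidneys, against -2.44, -2.22 and -2.13 in controls. AZIP kidneys gave -1.72, -1.70 and -1.52, against -2.73, -2.67 and -2.60 in FVB controls. These offsets carry the probes' brightness, so their steps between groups and not their levels can be read, and both steps were about as large as the rise of Hif3a itself.

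**Figure D2:**
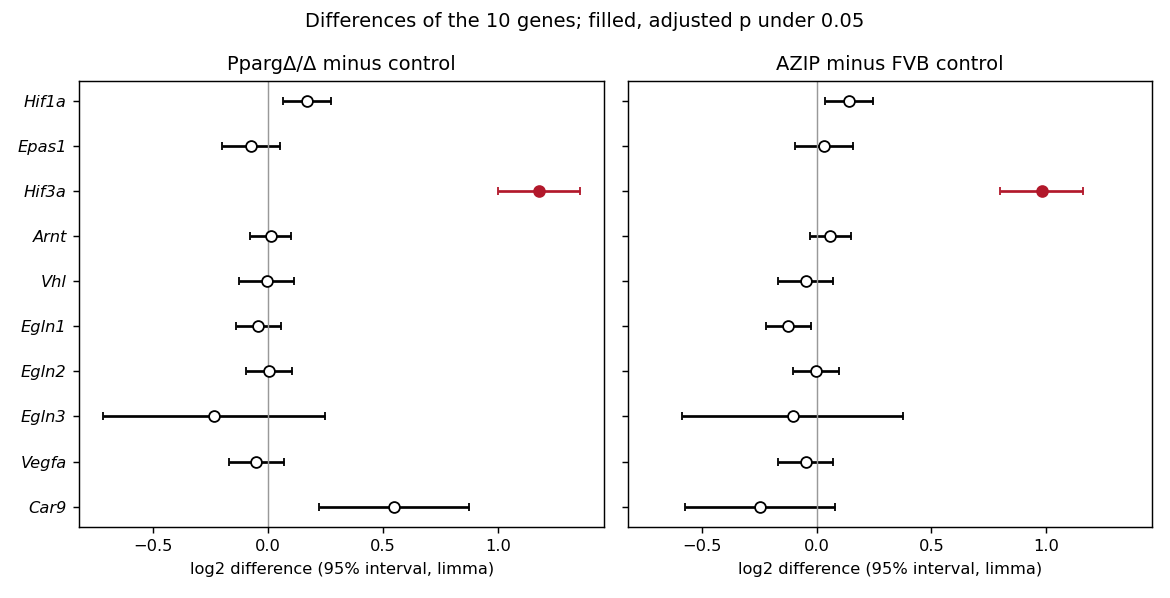
Log2 difference (horizontal axis) of each of the 10 genes in PpargΔ/Δ minus control and AZIP minus FVB control kidneys; points are limma estimates over 3 pools a group, bars are 95% intervals, and filled points passed an adjusted p of 0.05. Hif3a at 1.18 and 0.98 is the only filled point in either panel.

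The rest of the pathway was read from 5 further lists with 104 measured genes of 112 entries. Of 23 measured HIF regulators 0 were higher and 1 was lower in PpargΔ/Δ kidneys, where 2.67% of all genes were called higher and 2.62% lower, so the count is near the share of all genes. The one that fell was Siah2, a ubiquitin ligase that degrades prolyl hydroxylases, which read 8.41, 8.40 and 8.35 in PpargΔ/Δ kidneys, against 8.79, 8.68 and 8.52 in controls. All PpargΔ/Δ pools were lower, by -0.28 ± 0.06 (limma adjusted p = 0.0308), and the call was lost without PpargΔ/Δ pool 2 or 3 or control pool 1 or 2 (limma adjusted p up to 0.109). In AZIP kidneys 0 of the 23 regulators passed in limma, against 2.43% of all genes, and 5 of them had an unadjusted p under 0.05, against 16.4% of all genes. There Siah2 differed by -0.23 ± 0.06 (limma adjusted p = 0.0901).

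Hif3a and Arnt belong to the bHLH-PAS family of transcription factors, which also holds circadian clock proteins. Among 17 other measured family members 2 rose and 1 fell in PpargΔ/Δ kidneys, and 2 rose and 0 fell in AZIP kidneys. Over all genes 2.67% were called higher and 2.62% lower in PpargΔ/Δ kidneys, and 1.3% and 1.13% in AZIP kidneys. Arntl, which encodes the clock activator BMAL1, read 8.30, 8.41 and 8.70 in PpargΔ/Δ kidneys, against 6.94, 6.77 and 6.84 in controls. It was the gene with the smallest p-value of all in that comparison (1.62 ± 0.11, limma adjusted p = 8.33e-05). In AZIP kidneys Arntl read 8.51, 8.15 and 8.39, against 7.69, 7.45 and 7.61 in FVB controls (0.77 ± 0.11, limma adjusted p = 0.00924). Both sets of groups were far apart, and the larger rise in PpargΔ/Δ kidneys did not pass as a difference between lines (0.85, limma adjusted p = 0.271).

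Sim2, a neural and developmental factor of the family, rose by 0.35 ± 0.08 in PpargΔ/Δ kidneys (limma adjusted p = 0.0253), a call lost without PpargΔ/Δ pool 2 or any 1 of the 3 control pools (limma adjusted p up to 0.0983). In AZIP kidneys Sim2 differed by 0.22 ± 0.08 (limma adjusted p = 0.174). Per3, a clock repressor, fell by 0.56 ± 0.13 on the log2 scale in PpargΔ/Δ kidneys (limma adjusted p = 0.0351), a call lost without PpargΔ/Δ pool 2 or 3 or control pool 1 or 2 (limma adjusted p up to 0.119). In AZIP kidneys Per3 differed by -0.31 ± 0.13 (limma adjusted p = 0.278). Per1, another clock repressor, rose by 0.58 ± 0.10 in AZIP kidneys (limma adjusted p = 0.0186), and that call was lost without AZIP pool 2 or FVB control pool 1 (limma adjusted p up to 0.0730). In PpargΔ/Δ kidneys Per1 differed by 0.29 ± 0.10 (limma adjusted p = 0.134). A difference between the lines was not shown for Per3 or Per1 (limma adjusted p = 0.916 and 0.865). The clock genes move with the hour of the day, which is not given for these groups, and its part in these values was not tested.

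Several genes of glucose uptake and glycolysis that HIF is known to induce rose in both lines, with counts that depended on single pools. In PpargΔ/Δ kidneys 6 of 17 measured genes rose (35.3%), against 2.67% of all genes called higher, with a list median of 0.08. The count was 2 to 4 with any 1 pool left out. There 0 fell, against 2.62% of all genes called lower, and 1 fell with equal array medians, a filter on dim genes, a variance trend, an adjusted p under 0.10, or without PpargΔ/Δ pool 2. In AZIP kidneys 3 of 17 rose (17.6%), against 1.3% of all genes called higher, with a median of 0.10, and 0 fell, against 1.13% of all genes called lower. The AZIP count was 0 to 2 with any 1 pool left out. Slc2a1, the glucose transporter GLUT1, read 11.36, 11.38 and 11.38 in PpargΔ/Δ kidneys, against 10.95, 11.09 and 10.98 in controls (0.36 ± 0.05, limma adjusted p = 0.00355). Its PpargΔ/Δ pools were nearly identical and clear of the controls. In AZIP kidneys Slc2a1 read 11.27, 11.20 and 11.34, against 11.04, 11.05 and 10.97 in FVB controls (0.25 ± 0.05, limma adjusted p = 0.0343).

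Hk2, a hexokinase of insulin-responsive tissues, rose by 0.39 ± 0.07 in PpargΔ/Δ kidneys (limma adjusted p = 0.00858) and differed by 0.09 ± 0.07 in AZIP kidneys (limma adjusted p = 0.591). Its probe set was dim, with a mean of 5.87 in controls, where percentile 25 of gene brightness was 5.97. Slc16a3, a lactate exporter, rose by 0.43 ± 0.09 in PpargΔ/Δ and by 0.41 ± 0.09 in AZIP kidneys (limma adjusted p = 0.0214 and 0.0398). Pdk1, the kinase that holds pyruvate back from the mitochondria, rose by 0.23 ± 0.06 in PpargΔ/Δ and by 0.40 ± 0.06 in AZIP kidneys (limma adjusted p = 0.0472 and 0.0104). Pfkl, a phosphofructokinase of liver and kidney, rose by 0.30 ± 0.07 in PpargΔ/Δ kidneys (limma adjusted p = 0.0250) and differed by 0.25 ± 0.07 in AZIP kidneys (limma adjusted p = 0.0691). Pkm, the pyruvate kinase of growing cells, rose by 0.31 ± 0.08 in PpargΔ/Δ kidneys (limma adjusted p = 0.0404) and differed by 0.22 ± 0.08 in AZIP kidneys (limma adjusted p = 0.154).

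Not every gene of the list moved. Ldha and Pgk1, textbook HIF targets of lactate formation and glycolysis, differed by -0.05 ± 0.05 and 0.01 ± 0.04 in PpargΔ/Δ kidneys, and by -0.02 ± 0.05 and -0.01 ± 0.04 in AZIP kidneys. Pfkfb3, which speeds glycolysis, differed by -0.38 ± 0.11 in PpargΔ/Δ kidneys (limma adjusted p = 0.0577). Pdk1 and Pkm in PpargΔ/Δ kidneys and Slc2a1 and Slc16a3 in AZIP kidneys lost their calls whichever of the 6 pools was left out (limma adjusted p up to 0.150, 0.135, 0.111 and 0.120 in that order). Slc16a3 in PpargΔ/Δ kidneys lost its call without PpargΔ/Δ pool 2 or 3 or control pool 1 or 2 (up to 0.0879), and Pfkl with any pool but the first PpargΔ/Δ pool left out (up to 0.0905). Pdk1 in AZIP kidneys lost it without FVB control pool 1 (0.0553), while Slc2a1 and Hk2 in PpargΔ/Δ kidneys kept theirs with every pool left out.

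Among 19 measured HIF targets of vessels, iron and red cells 1 rose and 2 fell in PpargΔ/Δ kidneys, against 2.67% of all genes higher and 2.62% lower. Edn1, which encodes the vasoconstrictor endothelin-1, read 8.02, 8.04 and 8.10 in PpargΔ/Δ kidneys, against 7.12, 7.35 and 7.13 in controls (0.85 ± 0.08, limma adjusted p = 0.000509). In AZIP kidneys it read 7.90, 8.18 and 8.0, against 7.13, 7.26 and 7.37 in FVB controls (0.77 ± 0.08, limma adjusted p = 0.00309). Edn1 was the 1 gene of this list to rise in AZIP kidneys, where 0 fell, against 1.3% of all genes called higher and 1.13% lower. Its groups were well apart in both lines. Slc40a1, the iron exporter ferroportin, fell by 0.39 ± 0.05 in PpargΔ/Δ kidneys (limma adjusted p = 0.00184) and differed by -0.07 ± 0.05 in AZIP kidneys (limma adjusted p = 0.492). Angptl4, a lipoprotein lipase inhibitor that is also a classical PPAR target, read 10.31, 10.42 and 9.93 in PpargΔ/Δ kidneys, against 11.09, 10.90 and 10.94 in controls. It was lower in every PpargΔ/Δ pool (-0.76 ± 0.15, limma adjusted p = 0.0152), a call lost without control pool 1 (limma adjusted p = 0.0672). In AZIP kidneys Angptl4 differed by -0.24 ± 0.15 (limma adjusted p = 0.471).

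Epo, the hormone erythropoietin, did not pass the threshold and spread widely. It read 5.61, 6.17 and 6.57 in PpargΔ/Δ kidneys, against 5.41, 5.64 and 6.07 in controls (0.41 ± 0.30, 95% interval -0.23 to 1.06, limma adjusted p = 0.485). AZIP kidneys read 6.51, 5.91 and 7.15, against 6.10, 6.06 and 5.83 in FVB controls (0.52 ± 0.30, 95% interval -0.12 to 1.17, limma adjusted p = 0.427). The groups overlapped in both backgrounds.

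Of 28 measured targets of mitophagy, matrix, pH and feedback 1 rose and 1 fell in PpargΔ/Δ kidneys (3.57% each way), near the 2.67% of all genes called higher and the 2.62% called lower. In AZIP kidneys 1 rose and 0 fell, against 1.3% and 1.13% of all genes. Ddit4 (also called REDD1), an inhibitor of mTOR signalling that hypoxia, glucocorticoids and energy stress all induce, had the largest rise of the list in both lines. It read 10.34, 10.59 and 10.17 in PpargΔ/Δ kidneys, against 9.02, 8.98 and 8.74 in controls (1.45 ± 0.21, 2.74-fold, limma adjusted p = 0.00374). In AZIP kidneys it read 10.47, 9.94 and 9.62, against 8.15, 8.40 and 8.85 in FVB controls (1.54 ± 0.21, 2.91-fold, limma adjusted p = 0.00719). The groups did not overlap, although Ddit4 varied more between pools than Hif3a did. Ak4, a mitochondrial adenylate kinase, fell by 0.49 ± 0.09 on the log2 scale in PpargΔ/Δ kidneys (limma adjusted p = 0.0117), a call lost without control pool 1 (limma adjusted p = 0.0560), and differed by -0.25 ± 0.09 in AZIP kidneys (limma adjusted p = 0.185). Over all 3 target lists 8 of 64 measured genes rose (12.5%) and 3 fell (4.69%) in PpargΔ/Δ kidneys, against 2.67% and 2.62% of all genes, and 6 of those 8 were glycolysis genes. The median was 0.04, against -0.01 over all genes. In AZIP kidneys 5 of 64 rose (7.81%) and 0 fell, against 1.3% and 1.13% of all genes, and 3 of those 5 were glycolysis genes. The median there was 0.07, against 0.00 over all genes.

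**Figure D3:**
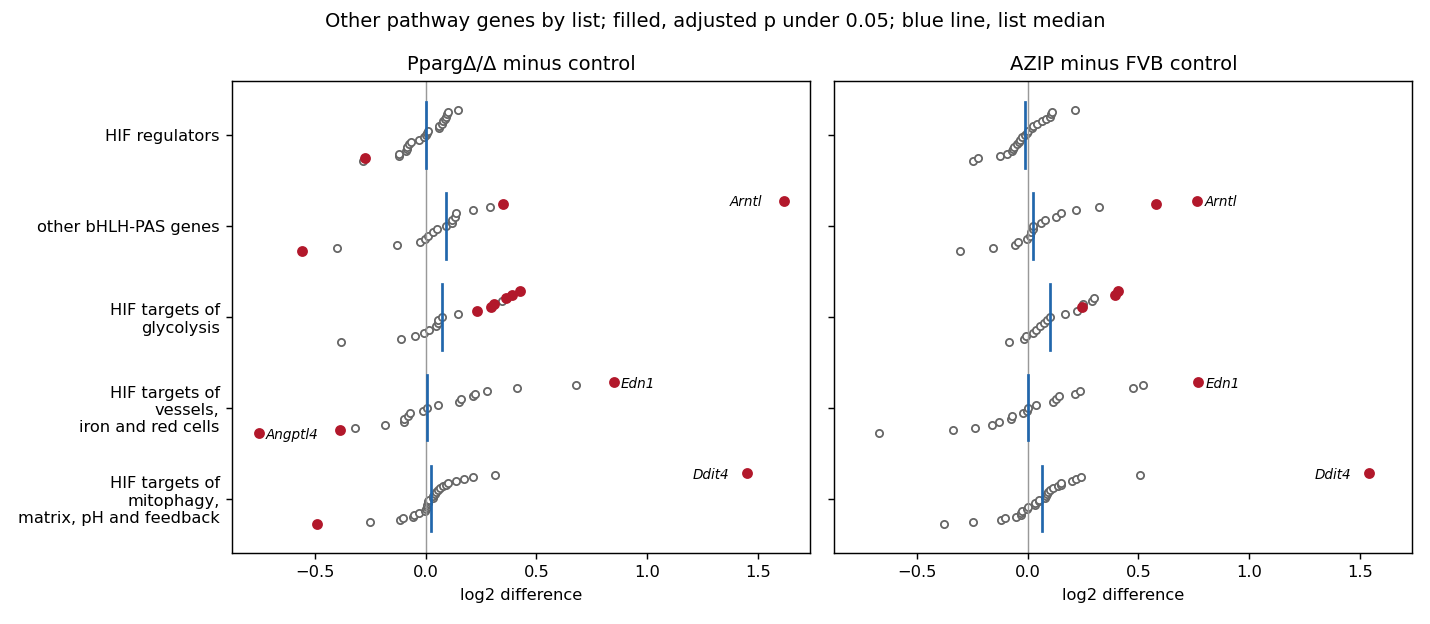
Log2 differences (horizontal axis) of the measured genes of 5 pathway lists in PpargΔ/Δ minus control and AZIP minus FVB control kidneys; each point is 1 gene, filled where the limma adjusted p is under 0.05, and the blue line is the list median. Most genes lie near 0 in both panels, and Arntl, Edn1 and Ddit4 are set apart on the right.

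Markers of kidney cell types were read beside these results, since whole kidney holds many of them. Their counts stand against 2.67% of all genes called higher and 2.62% lower in PpargΔ/Δ kidneys, and 1.3% higher and 1.13% lower in AZIP kidneys. Some smooth muscle markers rose in both lines, while Myh11 and Smtn were called in neither. In PpargΔ/Δ kidneys 3 of 5 rose (Acta2, Cnn1 and Tagln). The summed linear level of all 5 was 4775 to 5305, against 3435 to 3541 in controls. In AZIP kidneys 2 of 5 rose (Acta2 and Tagln), and the sum was 4070 to 5083, against 3407 to 3631 in FVB controls. Of 9 proximal tubule markers 1 fell in PpargΔ/Δ kidneys (Slc22a12) and 0 in AZIP kidneys. Their estimates were below 0 in each line, against 53.2% of all genes in PpargΔ/Δ and 48.9% in AZIP kidneys, but several lay within 1 SE of 0. In PpargΔ/Δ kidneys 4 of the 9 had an unadjusted limma p under 0.05, against 20.4% of all genes. In AZIP kidneys 5 of the 9 did, against 16.4% of all genes. These markers were not tested as a list. Their sum was 45048 to 46945 in PpargΔ/Δ kidneys, against 48661 to 52335 in controls. It was 47292 to 51210 in AZIP kidneys, against 53160 to 54498 in FVB controls. Wt1 of podocytes rose in both lines, as 1 of 4 markers. Among 7 markers of fibroblasts and pericytes, cells that can make erythropoietin, 1 rose in PpargΔ/Δ (Col1a1) and 1 in AZIP kidneys (Col3a1). The sums of the podocyte list and of the fibroblast and pericyte list lay above those of their controls without overlap in each line. No endothelial marker of 7 passed in limma in either line, with 1 and 0 of them at an unadjusted p under 0.05.

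Other markers were called in PpargΔ/Δ kidneys (2.67% of all genes higher and 2.62% lower) and not in AZIP kidneys, a contrast tested only gene by gene in the difference of the 2 effects. Collecting duct markers were higher for 3 of 8 (Aqp2, Aqp3 and Scnn1g), with a sum of 10078 to 10295, against 8173 to 8837 in controls. Neutrophil markers were higher for 3 of 5 (S100a8, S100a9 and Ngp), with a sum of 331 to 378, against 254 to 275 in controls. These 3 were dim, at percentiles 15.4, 26.9 and 16.1 of brightness in that order. Urothelial markers were higher for 2 (Krt5 and Krt14) and lower for 1 (Upk1b) of 7, and of these lists only urothelium had a gene, 1 of 7, past the threshold in the difference. Red cell markers had 1 of 3 and adrenal markers 1 of 5 higher, and thick limb, macrophage and fat markers had 0 called in either line. The summed level of the 6 fat markers was 1135 to 1354 in PpargΔ/Δ kidneys, against 1529 to 1609 in controls. In AZIP kidneys that sum was 1843 to 2180, against 1583 to 1757 in FVB controls. Fabp4, the brightest fat marker at percentile 89.2, weighed most in it. Array values have no zero, and the dimmest defining markers were Adipoq of fat at percentile 8.65 and Cyp11a1 of the adrenal at percentile 8.99. The part of these cell types in the values of Hif3a and the targets was not tested.

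The genes whose pattern was most like that of Hif3a were found by Pearson's r over the 12 arrays, each centred on the mean of the 6 arrays of its own background. The 8 highest were Usp54 of the ubiquitin-specific peptidase family (r = 0.974), the metabolic coactivator Ppargc1a (0.972), the membrane protease Tmprss2 (0.971), the palmitoyltransferase Zdhhc15 (0.969), the kinase Wnk3 (0.967), the metalloproteinase Pappa (0.967), the fatty acid desaturase Scd2 (0.966) and the guidance ligand Slit3 (0.963). These values describe arrays that share the step between mutant and control, and 170 genes had an r over 0.9. Among the members Hif1a came nearest (0.904, rank 151), and the others ran from -0.70 for Egln1 to 0.44 for Arnt.

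These genes were picked on the same 12 arrays, so that being higher in both mutants follows from how they were chosen, and their values are a description with no test. Wnk3, which regulates salt transporters, came closest in size to Hif3a. It read 8.02, 7.80 and 8.29 in PpargΔ/Δ kidneys, against 6.80, 6.81 and 7.06 in controls, a difference of 1.15. In AZIP kidneys Wnk3 read 7.13, 7.62 and 7.74, against 6.37, 6.35 and 6.62 in FVB controls, a difference of 1.05. Its mutant pools lay above the control pools in both lines. Ppargc1a, which drives mitochondrial genes and is known to respond to fasting and glucagon in liver, read 11.76, 11.82 and 11.79 in PpargΔ/Δ kidneys, against 11.46, 11.54 and 11.53 in controls. In AZIP kidneys it read 11.71, 11.65 and 11.77, against 11.40, 11.45 and 11.49 in FVB controls, so that its steps of 0.28 and 0.26 were small beside those of Hif3a. Scd2 differed by 0.77 in PpargΔ/Δ and by 0.51 in AZIP kidneys. The other 5 differed by 0.30 to 0.58 in PpargΔ/Δ and by 0.22 to 0.56 in AZIP kidneys.

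**Figure D4:**
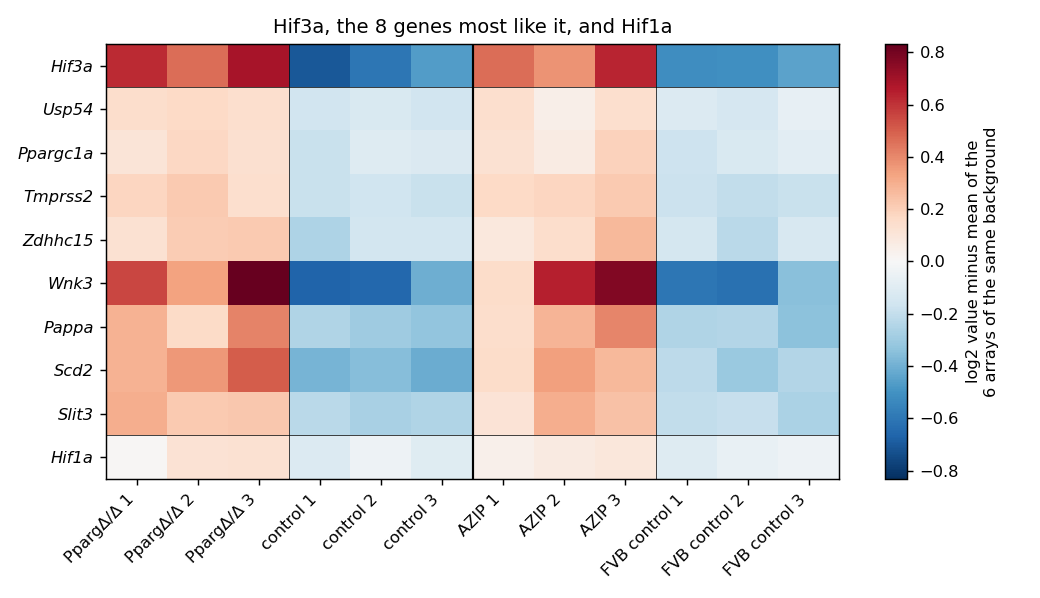
Log2 values of Hif3a, the 8 genes most like it and Hif1a on each array (columns, mutants left of their controls), minus the mean of the 6 arrays of the same background; red is above and blue below that mean. The rows change sign between mutants and controls in both backgrounds, most strongly for Hif3a and Wnk3.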

How the data were processed

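Whole-kidney RNA was hybridised to 12 Affymetrix whole-transcript arrays (4 groups, 3 arrays each, pools of 3 mice). The deposited values are log2 expression per probe set. Per the submitters' processing notes the authors used Affymetrix Expression Console and RMA. RMA corrects background, normalizes across arrays and has no zero. Their versions, settings and annotation build are not stated there. No further normalization was applied. The number of arrays limits the precision.

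Of 35556 probe sets 21789 had 1 symbol in the platform table, 1621 several and 12146 none. Current symbols replaced the platform's through Entrez numbers in 21698 probe sets and 91 kept the old one. The probe set with the highest mean was used for 999 genes with more than 1, and each of the 10 members had 1. Group means over all 12 arrays were fitted in R 4.3.3 by limma 3.58.1, with 8 residual and 3.71 prior degrees of freedom, and Benjamini-Hochberg adjustment ran over 19938 genes. The median SE was 0.0698. The 2 mutants were each set against their controls, and the AZIP effect was subtracted from the PpargΔ/Δ effect.

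The members, the 5 pathway lists and the 13 marker lists were chosen with earlier results of these data known, so their counts are descriptions. Named genes were the members, up to 4 called genes with the smallest p per pathway list and comparison, the 8 genes most like Hif3a by Pearson's r (predicted genes left out), Ddit4, Epo, Slc2a1 and Pparg. Pkm, Ldha, Pgk1 and Pfkfb3, the called marker genes, and the values of Siah2, Sim2, Per3, Per1, Hk2, Pfkl, Slc40a1, Angptl4 and Ak4 in the comparison where the rule did not name them were added after values were seen. Promoter windows came from RefSeq (GRCm38.p6). On simulated data for the PpargΔ/Δ contrast over 19938 genes, 36% of changes of 0.3, 76% of 0.5, 96% of 1 and 100% of 1.5 in log2 were found, with 9 calls among 19738 unchanged genes. That simulation changed only 50 genes at each size and gave the genes independent noise. In the data 1055 genes were called in this contrast, so these rates need not hold there. Alternatives changed the scaling (quantile normalization again, equal array medians), the genes (a filter at percentile 25, averaged probe sets, every probe set of the table), the fit (each pair of groups alone, a trend, robust or weighted variances, a replicate block, single arrays left out) and the threshold (an adjusted p under 0.10).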

Additional observations from a re-analysis of the deposited data

How the results depend on the processing

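With 3 pools a group, small differences are the limit of these data. No direction of a called result was reversed under any alternative run. Hif3a kept its call in all 17 alternatives of each comparison, with a rise of 1.12 to 1.24 in PpargΔ/Δ and of 0.91 to 1.04 in AZIP kidneys when single arrays were left out. The cause of the shifts below was not tested.

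Members past the threshold in PpargΔ/Δ kidneys numbered 1, and 3 (Hif3a, Hif1a and Car9) without genes under percentile 25, with a variance trend or at an adjusted p under 0.10, 2 (Hif3a and Hif1a) with array weights, and 1 to 2 with single arrays left out. For Hif1a the limma adjusted p was 0.0368 with the filter, 0.0217 with the trend and 0.0316 with the weights, and for Car9 it was 0.0427 and 0.0402 with the filter and the trend. All genes past the threshold numbered 1055 in PpargΔ/Δ kidneys, 607 with only the 2 groups compared, 1938 at an adjusted p under 0.10 and 330 to 1084 with single arrays left out. In AZIP kidneys they numbered 485, 176 with all probe sets tested, 162 with only the 2 groups, 785 with a trend, 1035 at an adjusted p under 0.10 and 62 to 569 with single arrays left out. In the difference of the 2 effects they numbered 4, 0 with all probe sets, 7 at an adjusted p under 0.10 and 0 to 9 with single arrays left out. Equal array medians gave 436 genes higher and 694 lower in PpargΔ/Δ kidneys (532 and 523 as reported), and 203 and 326 in AZIP kidneys (260 and 225 as reported). Quantile normalization gave 486 and 668 in PpargΔ/Δ, and 265 and 313 in AZIP kidneys.

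Glycolysis targets called higher in PpargΔ/Δ kidneys numbered 6, 3 with all probe sets or only the 2 groups, and 2 to 4 with single arrays left out. Those called lower numbered 0, 1 with equal medians, the percentile 25 filter, a trend or an adjusted p under 0.10, and 0 to 1 with single arrays left out. In AZIP kidneys those called higher numbered 3, 1 with all probe sets or only the 2 groups, and 0 to 2 with single arrays left out.

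Deviations of same-numbered pools correlated over all genes at 0.18, 0.18 and 0.01 for PpargΔ/Δ with control. For AZIP with FVB control they correlated at -0.04, -0.10 and -0.01. Pools of different backgrounds were not compared in this way, and whether a replicate number marks a shared batch was not tested. With the replicate block 3 members passed in PpargΔ/Δ kidneys (Hif1a at a limma adjusted p of 0.0462 and Car9 at 0.0200 beside Hif3a), and all genes numbered 1102 in PpargΔ/Δ kidneys, 694 in AZIP kidneys and 1 in the difference of the 2 effects. Over the named genes, in the contrasts run for each, 848 single-gene values kept their direction and side of the threshold under settings other than left-out arrays, 28 lost and 16 gained the call. With arrays left out, 489 kept, 61 lost and 2 gained it.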

Other observations

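Hif1a was higher in both mutant lines without overlap and missed the threshold in each, so the average of the 2 effects was fitted, a contrast chosen after its values were seen. That average was 0.16 ± 0.03 with a limma adjusted p of 0.0108, where 12.6% of all genes passed, and it stayed under 0.05 in 12 of 12 fits with 1 array left out (limma adjusted p up to 0.0313). All 6 mutant pools lay above the 3 control pools of their own background. Groups did not overlap, in either direction, for 26.1% of all genes in PpargΔ/Δ and 22.5% in AZIP kidneys. The share in both lines was not counted. Since these same arrays led to the contrast, its p-values and left-out fits are a description and not a separate test.

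Egln3 read lowest on the array numbered 2 in each of the 4 groups, at 7.56 in PpargΔ/Δ, 7.76 in control, 7.34 in AZIP and 7.55 in FVB control kidneys. Car9 also read lowest on the array numbered 2 in each group, at 6.64, 6.38, 5.56 and 6.01 in that order. So did Vhl, at 8.59, 8.53, 8.56 and 8.60. Hif1a read lowest on the array numbered 1 in each group, and Epas1 on the array numbered 3. How many of all genes share a lowest array number in this way was not counted. The replicate numbers are not stated to mark a shared day or litter, and the source of these patterns was not tested.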
